A study of Drosophila melanogaster with 2 samples.

Results

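In Drosophila embryos, CG7745-GFP gave 2497 peaks at protein-coding promoters that were seen in both replicates but were too weak for the reproducible set. These peaks are called shared weaker promoter peaks here. They were chosen by 3 measured values from the list of 30000 peaks called on both replicates pooled. The peak was not in the set kept by the irreproducible discovery rate (IDR), its summit was at most 500 bp from a protein-coding gene's transcription start site (TSS), and a summit of each replicate's own list lay within 100 bp of it. They made up 8.32% of the pooled list (exact 95% interval 8.01 to 8.64%) and 34.9% of the 7164 promoter peaks outside the IDR set (33.8 to 36.0%). They were compared with 733 IDR promoter peaks, with 4667 weaker promoter peaks not found in both replicates (unshared weaker promoter peaks), and with 5629 weaker peaks found in both replicates but farther than 500 bp from a TSS (shared weaker distal peaks).

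A promoter is the stretch of DNA around the TSS where RNA polymerase II and the general factors assemble. Fly promoters carry short core elements: the TATA box binds the TATA-binding protein, the initiator lies at the start itself, the DNA replication-related element (DRE) binds Dref, and Ohler motif 1 binds the factor M1BP. GAGA repeats bind the GAGA factor Trl, which keeps promoters free of nucleosomes. Many housekeeping genes use DRE and Ohler motif 1, and many developmental genes use the TATA box or the initiator.

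The study applied chromatin immunoprecipitation followed by sequencing (ChIP-seq) to whole embryos, 0 to 12 hours old, of 1 transgenic line in which GFP is joined to the C-terminus of CG7745. The description in the labels names an antibody to GFP, whereas the antibody field names CG7745 itself, the cell type is the whole organism, and the sex of the embryos was not collected. There was 1 group with no second condition, formed by biological replicates 2 and 3 from separate biosamples, and both were called against the same control alignment. The peak lists carry no read counts, so depth is unknown. Intervals and Fisher p-values cover the counting of peaks only, which are not replicates.

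The windows below show what DNA lies under these summits. Each is 101 bp of the plus strand centred on the summit of a shared weaker promoter peak (Release 6, the build known as dm6), taken from windows that hold no annotated UTR base, with 1 chromosome arm left out. The first 8 are the strongest 2 peaks for each of the 4 motifs whose share at the summits most exceeded that at all protein-coding starts, with the motif in capitals on either strand. The last 3 are the strongest peaks that hold none of these 4.

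The CA repeat (CACACACA) lies at CG6000, chr3R:24054041-24054141, and at pan, the transcription factor of the Wnt pathway, chr4:70253-70353.
CG6000: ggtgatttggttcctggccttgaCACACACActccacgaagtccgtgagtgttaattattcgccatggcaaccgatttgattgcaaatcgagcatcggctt
pan: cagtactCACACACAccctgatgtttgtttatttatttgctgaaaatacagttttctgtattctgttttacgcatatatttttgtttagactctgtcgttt
The GAGA element (GAGAG) lies at orion, chrX:7947105-7947205, and at Hnf4, a nuclear receptor, chr2L:8691621-8691721.
orion: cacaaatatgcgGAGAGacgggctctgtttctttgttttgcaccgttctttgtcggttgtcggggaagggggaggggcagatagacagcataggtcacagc
Hnf4: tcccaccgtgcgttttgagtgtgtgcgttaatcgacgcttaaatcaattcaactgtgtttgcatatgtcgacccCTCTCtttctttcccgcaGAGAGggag
The GATA site (AGATAA) lies at EMC6, a subunit of the endoplasmic reticulum membrane complex, chr3R:25025051-25025151, and at Best1, a bestrophin chloride channel, chr3R:10170591-10170691.
EMC6: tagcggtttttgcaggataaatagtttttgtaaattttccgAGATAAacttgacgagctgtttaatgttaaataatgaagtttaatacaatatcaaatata
Best1: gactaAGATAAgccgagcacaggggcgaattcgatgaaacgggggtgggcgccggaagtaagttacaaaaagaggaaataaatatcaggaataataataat
The run of 8 A, which reads as 8 T on the other strand (AAAAAAAA), lies at CG10479, chr3L:5976441-5976541, and at CG15011, chr3L:4259216-4259316.
CG10479: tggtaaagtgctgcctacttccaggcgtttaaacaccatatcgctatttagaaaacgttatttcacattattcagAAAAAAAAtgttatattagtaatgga
CG15011: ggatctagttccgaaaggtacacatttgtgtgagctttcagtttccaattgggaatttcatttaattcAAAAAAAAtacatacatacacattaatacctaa
None of the 4 lies at trbl, the pseudokinase Tribbles, chr3L:20401869-20401969, at Moe, the membrane linker Moesin, chrX:8879066-8879166, or at waw, chrX:21362907-21363007.
trbl: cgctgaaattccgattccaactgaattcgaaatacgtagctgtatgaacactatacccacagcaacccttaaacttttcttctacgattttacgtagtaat
Moe: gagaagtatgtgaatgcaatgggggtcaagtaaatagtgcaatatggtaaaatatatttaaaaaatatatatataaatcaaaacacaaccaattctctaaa
waw: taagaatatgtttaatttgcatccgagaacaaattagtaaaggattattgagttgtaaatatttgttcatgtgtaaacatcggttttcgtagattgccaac

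Their signals in the 2 libraries are given next. At CG6000 the peak had a signal of 46.9 in replicate 2 and 80.3 in replicate 3, and at pan it had 28.2 and 87.4. The orion peak had 49.1 and 66.8, and the Hnf4 peak had 33.1 and 74.6. The EMC6 peak had 33.6 in replicate 2 and 85.9 in replicate 3, whereas the Best1 peak had 67.9 in replicate 2 and 57.7 in replicate 3. The 2 scales are those of the authors' peak caller, so the values are read by their rank in each list: the Best1 peak was number 1104 in replicate 2 and 3801 in replicate 3, the CG10479 peak number 8834 and 1283. The trbl peak ranked 3452 and 2579, the Moe peak 5227 and 1680, and the waw peak 1850 and 3241. The order of these printed peaks thus differed between the libraries. They were picked for a high pooled signal, and theirs lay in a narrow range just under the IDR set (114.8 to 121.5). Such a narrow range can itself set the 2 libraries apart, so nothing more is read from this order.

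The selection fixed where these peaks stand in the pooled list, and the following values describe it. The pooled signal (the authors' own value, on a scale that is not stated) lay between 29.5 and 121.5 with a median of 69.2, against 121.8 to 4752 with a median of 167 for the IDR promoter peaks. It ran from 28.6 to 121.7 with a median of 40.5 for the unshared weaker promoter peaks, and its median was 61.0 for the shared weaker distal peaks. Pooled ranks ran from 1879 to 28700, with a median of 6353. The deposited −log10 q value lay between 0.479 and 3.32, with a median of 2.22. It was 2 or more in 1422 of the shared peaks (56.9%, exact interval 55.0 to 58.9%), against 12.0% of the unshared ones (11.1 to 13.0%), and it was under 1 in 276 of the shared peaks. The −log10 q did not follow the signal at the top: it was 3.10 at CG6000, with the highest signal, and 3.32 at Nup214, with a signal of 96.2.

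Peaks close to the limits of the selection had nearly the same values on either side. The strongest shared weaker promoter peaks, at CG6000, trbl and blw (which encodes the alpha subunit of ATP synthase), had signals of 121.5, 121.5 and 120.9, against 121.8 at Asator, 121.9 at Hnf4 (a second peak of that gene) and 121.9 at snRNP-U1-70K just inside the IDR set. The summits farthest from a start lay at 500 bp (Archease), 499 bp (CG9536) and 499 bp (Mmp1), against 501 bp at cbt, -502 bp at ergic53 and -503 bp at CG15283 among the distal peaks. The replicate summit was 100 bp away at Tfb4, Eb1 and mam, against 101 bp at dpy, nrv2 and salm. The salm peak had a pooled signal of 103.5, so some strong promoter peaks fell outside by 1 bp. Between 90 and 100 bp there were 174 shared peaks, and 137 unshared peaks missed the limit by 10 bp or less.

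The signals of the 2 libraries were only weakly correlated across these peaks. The replicate 2 signal ran from 13.7 to 129.5 (median 27.6), and the replicate 3 signal from 18.9 to 103.8 (median 39.1). Spearman's rho between them was 0.22 over the 2497 shared weaker promoter peaks, against 0.56 over the 684 IDR promoter peaks matched in both lists and 0.31 over the 5629 shared weaker distal peaks. These are descriptions across peaks of 2 libraries with 1 control, and a narrower range of signals was fixed by the selection. The rank in replicate 2 had a median of 9106 and that in replicate 3 a median of 8704. The higher of the 2 ranks was at the median 2.01 times the lower, and neither library ranked these peaks higher as a rule, since 1217 (48.7%, exact interval 46.8 to 50.7%) ranked higher in replicate 2. Of the shared weaker promoter peaks, 135 were among the 1874 strongest of replicate 2, 88 among those of replicate 3, and 2 among those of both, against 430 of the 684 IDR promoter peaks for both.

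**Figure D1:**
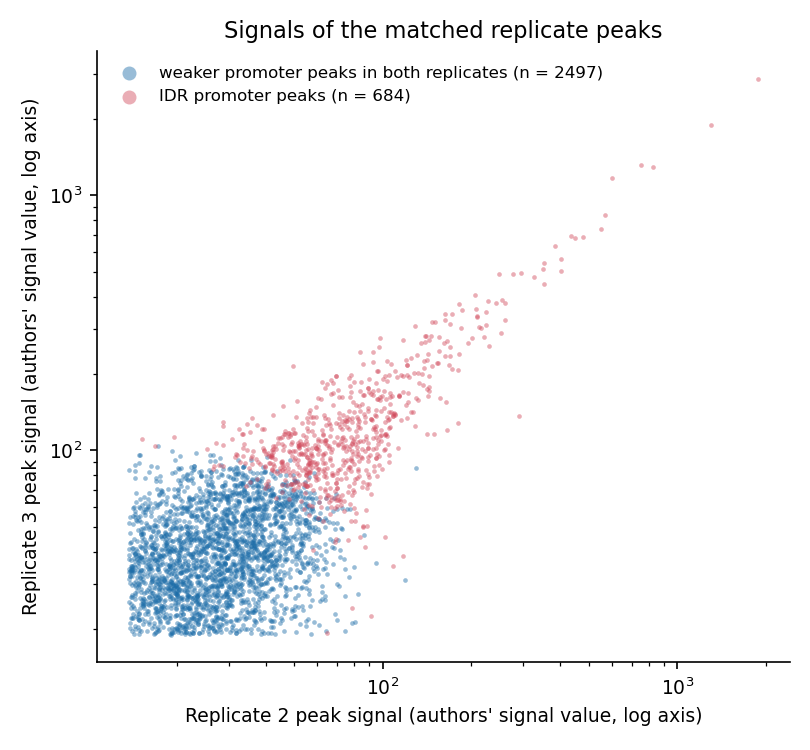
Signal of the matched replicate 3 peak against that of the matched replicate 2 peak (authors' signal values, log axes), for 2497 shared weaker promoter peaks and 684 IDR promoter peaks; each point is 1 peak. The shared weaker peaks form a cloud with a rho of 0.22, and the IDR peaks reach 1884 in replicate 2 and 2871 in replicate 3.

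Those 2 peaks lay at RpL35A and at Cpr. The RpL35A peak, at a ribosomal protein gene, had 58.3 in replicate 2 (rank 1586) and 81.2 in replicate 3 (rank 1772). The Cpr peak, at the gene of the reductase that supplies electrons to cytochrome P450 enzymes, had 129.5 (rank 221) and 85.5 (rank 1578) but a pooled signal of only 74.0 (rank 5496). An IDR summit lay 214 bp from it. Pdk1, a kinase of insulin signalling, ranked 1762 and 1888, Ccm3 ranked 1054 and 2622, and the inositol kinase gene Ip6k ranked 2512 and 1332. At the other extreme, the peak at kis, which encodes a CHD-family chromatin remodeller, had 118.6 in replicate 2 (rank 274) and 31.1 in replicate 3 (rank 13613), with an IDR summit 199 bp away. The peaks at Pkc98E (ranks 710 and 25743), NTPase (777 and 25843), tara (876 and 28621) and Miga (680 and 17132) were also far higher in replicate 2.

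Some of these peaks stood next to a stronger one. An IDR summit lay within 1000 bp of 196 of them (7.85%, exact interval 6.82 to 8.97%) and within 250 bp of 82, and no IDR summit was closer than 199 bp. The deposited width was 396 bp for 2478 of the 2497 peaks. The 82 had a median rank ratio between replicates of 2.39, against 1.99 in the others, and 9 of them differed by 10 times or more, out of 63 such peaks in all. Whether the neighbouring peak bears on these signals was not tested. No replicate peak was matched to 2 of the shared weaker promoter peaks, but 4 of them had the same interval as another pooled peak. Replicate peaks matched to both a shared weaker peak and an IDR peak were not counted. The shared weaker promoter peaks lay nearest to 2189 genes, of which 1927 had 1, 221 had 2, 36 had 3 and 5 had 4.

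Fewer of the shared weaker promoter summits than of the IDR promoter summits lay upstream of the start. Their median position was 18 bp upstream of the TSS (-18, quartiles -125 and 84), against -73 for the IDR promoter peaks and -3 for the unshared ones. In all, 1372 of 2492 summits off the exact start lay upstream (55.1%, exact interval 53.1 to 57.0%), against 494 of 729 IDR promoter summits (67.8%, 64.2 to 71.1%). The difference was -12.7 points (two-sided Fisher's exact test, Benjamini-Hochberg adjusted p = 5.76e-09 over 54 tests), and it stayed between -9.07 and -14.7 points and past the threshold in the alternatives run. Against the unshared peaks, of which 50.7% lay upstream (49.2 to 52.1%), the difference was 4.37 points (Fisher's exact test, two-sided, adjusted p = 0.00207), and it missed the threshold in 6 alternatives.

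**Figure D2:**
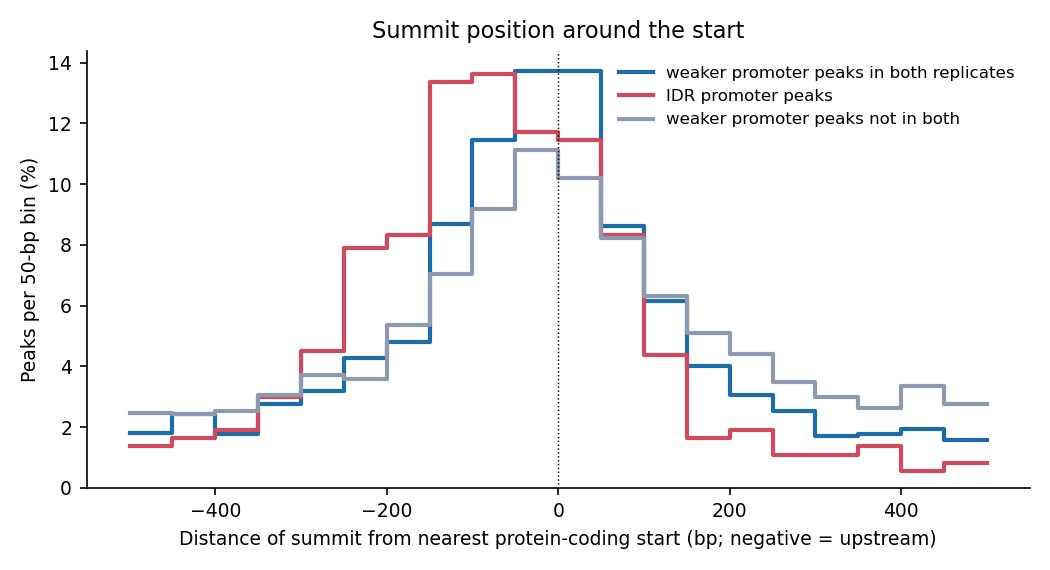
Position of the summit relative to the nearest protein-coding start (bp, negative upstream) in bins of 50 bp, as a percentage of the 2497 shared weaker promoter peaks, the 733 IDR promoter peaks and the 4667 unshared weaker promoter peaks. The shared weaker peaks are most frequent in the bins on either side of the start (13.7% in each), and their median position is -18 bp, against -73 bp for the IDR promoter peaks.

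The distances to the start had no single order among the groups. Of the shared weaker promoter peaks, 689 (27.6%) lay within 50 bp of the TSS, against 23.2% of the IDR promoter peaks and 21.4% of the unshared peaks, and 78.6% lay within 250 bp, against 82.7% and 70.6%. These distances were limited by the selection and carry no test. The summit was in an annotated 5′ UTR in 875 peaks (35.0%), outside protein-coding genes in 815 (32.6%), in an intron of some transcript in 632 (25.3%), in coding sequence in 140 (5.61%) and in a 3′ UTR in 35 (1.40%).

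Summits in coding sequence set both neighbouring groups apart. They were 5.61% of the shared weaker promoter peaks (exact interval 4.74 to 6.58%), against 6 of 733 IDR promoter peaks (0.819%, 0.301 to 1.77%), a difference of 4.79 points (Fisher's exact test, two-sided, adjusted p = 3.73e-09). Among the unshared weaker promoter peaks they were 582 (12.5%, 11.5 to 13.5%), a difference of -6.86 points (adjusted p = 2.08e-20, same exact test). Limited to the 10000 strongest pooled peaks, the difference from the unshared peaks was -1.42 points and missed the threshold (adjusted p = 0.195, two-sided Fisher's exact test). This measure was added after the data were seen. ATPsynbeta, on chromosome 4, was one of the stronger peaks of this kind, with a summit in coding sequence 54 bp downstream of a start and signals of 30.9 in replicate 2 and 66.9 in replicate 3.

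No difference in divergent promoters, those with an opposite-strand start of another gene up to 1000 bp upstream, passed the threshold. They held 34.0% of the shared weaker promoter peaks, against 34.8% of the IDR promoter peaks (difference -0.79 points, adjusted p = 0.864) and 33.2% of the unshared ones (0.77 points, adjusted p = 0.727), by the same two-sided Fisher's exact test. Where the promoter was divergent, 348 of 849 shared weaker summits lay upstream (41.0%, exact interval 37.7 to 44.4%), against 147 of 254 IDR promoter summits (57.9%, 51.5 to 64.0%). Elsewhere, 1024 of 1643 lay upstream (62.3%, 59.9 to 64.7%), against 347 of 475 (73.1%, 68.8 to 77.0%). The shared weaker summits were thus less often upstream in both settings. The nearest start was used, so a neighbouring start limits how far upstream a summit can lie at divergent promoters, and this split was not tested.

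The features changed with the signal among the shared weaker promoter peaks themselves. Split into 4 equal classes by pooled signal, the share of summits upstream was 59.4% in the strongest class (signals 88.0 to 121.5), 59.0% and 55.8% in the next, and 46.1% in the weakest (29.5 to 52.8). Summits in coding sequence took 0.96%, 2.56%, 7.69% and 11.2% in the same order. The share within 50 bp of the start was 33.9%, 30.6%, 22.3% and 23.6%. The exact intervals of the strongest and the weakest class did not overlap for any of these 3 shares, which carry no test because the classes were made from the data.

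**Figure D3:**
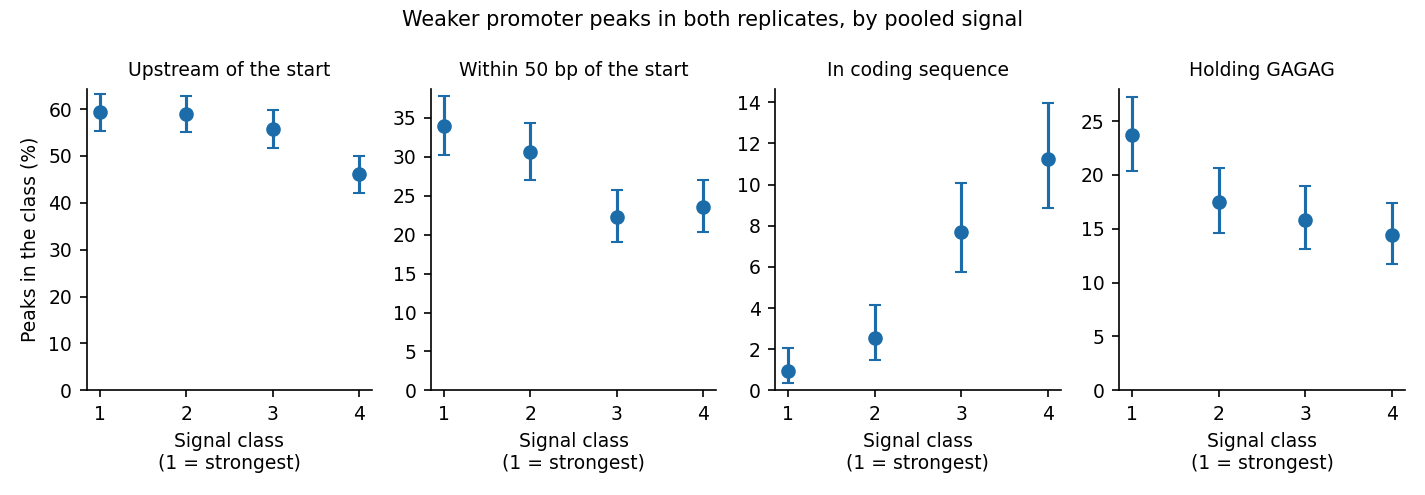
Percentage of shared weaker promoter peaks with the named feature in each of 4 classes of pooled signal (1 is the strongest, 624 or 625 peaks each; bars are exact 95% binomial intervals that cover counting only). Summits in coding sequence go up with falling signal to 11.2%, and upstream summits and the GAGA element are least frequent in the weakest class, at 46.1% and 14.4%.

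Chromosome X carried more of the shared weaker promoter peaks than of the IDR promoter peaks. There were 395 on X (15.8%, exact interval 14.4 to 17.3%), against 72 of the IDR promoter peaks (9.82%), a difference of 5.996 points (Fisher's exact test, two-sided, adjusted p = 0.000191). The difference was between 4.87 and 6.87 points and past the threshold in the alternatives run. All protein-coding starts had 17.0% on X, the unshared weaker promoter peaks 17.4% (difference -1.60 points, adjusted p = 0.187), and the shared weaker distal peaks 13.8% (2.07 points, adjusted p = 0.045, a call lost in 7 alternatives), by the same two-sided Fisher's exact test. The other arms had 446 on 2L, 529 on 2R, 512 on 3L, 591 on 3R and 24 on chromosome 4. The median signal of those on X was 68.8, against 66.9 to 70.8 on the other arms.

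The DNA at the summits differed from that at the IDR promoter peaks mainly in A and T rich words. The median GC content of the 101 bp window was 42.6% in the shared weaker promoter peaks, against 39.6% in the IDR promoter peaks, 42.6% in the unshared ones and 43.6% at all 19252 protein-coding starts. Of 2080 6-mers counted on both strands, 41 differed from the IDR promoter peaks (1.97% of all tested; threshold 0.05 on the adjusted p of a two-sided Fisher's exact test), 33 of them less frequent in the shared weaker peaks, and 24 of these were made of A and T alone. AATTAA was in 17.2% of the shared weaker windows, against 30.01% of the IDR promoter windows (adjusted p = 4.6e-10, two-sided Fisher's exact test), with 8.81% at all starts. TAATTA was in 7.65%, against 16.6% (adjusted p = 8.08e-09, same exact test), with 2.99% at all starts. Against the unshared peaks 12 of the 6-mers differed (0.577% of all tested), 9 of them less frequent in the shared peaks, and none was made of A and T alone. These counts of 6-mers were added after the data were seen.

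Over all measures, 18 of the 54 tests passed the threshold. The 54 include comparisons of promoter motifs with the distal peaks, which are given below with no test. Their small p-values entered the adjustment and lowered other adjusted values. The calls close to 0.05 may rest on this, and they were not adjusted without those comparisons. Such calls are Ohler motif 6, the CA repeat against the unshared peaks, and X against the distal peaks. Among 15 motifs searched on both strands, the TATA box was less frequent in the shared weaker promoter peaks than in the IDR promoter peaks. TATAAA is itself 1 of the 24 words of A and T alone, and 10 other 6-mers had a smaller p. It lay in 11.5% of the shared weaker windows (exact interval 10.2 to 12.8%), against 18.4% of the IDR promoter windows (15.7 to 21.4%), a difference of -6.96 points (Fisher's exact test, two-sided, adjusted p = 1.3e-05), and 15.5% of all starts. It kept this call in every alternative run. Ohler motif 6 (GTATTTTT) was also lower, at 1.60% against 3.14% (adjusted p = 0.0445, same exact test), but 7 alternatives lost this call. CAGCTG, the E-box known as Ohler motif 5, was in 6.73%, against 4.37% (2.36 points, adjusted p = 0.0528, same exact test), and it passed the threshold in 5 alternatives. No comparison passed for CACGTG (1.84% of the shared weaker windows and 1.82% of all starts), for the Zelda site CAGGTAG (0.481% and 0.483%) or for CTTTTC, the core of a polypyrimidine initiator (9.65% and 10.01%).

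Core elements of promoters are known for lying near starts, and the distal peaks were set apart by their distance from a start, so the next shares are a description with no test. The DRE core (TATCGATA) lay in 3.12% of the shared weaker promoter windows, against 0.142% of the distal windows. Ohler motif 1 (GGTCACAC) lay in 3.36%, against 0.160%. CGATA, which is also the inner part of the DRE and a site of the insulator protein BEAF-32, lay in 20.3%, against 12.4%, and Ohler motif 7 (CANCNCTA) in 6.25%, against 2.56%. CAGCTG lay in 6.73%, against 4.42%. The shares at all protein-coding starts were 4.48%, 4.68%, 23.6%, 7.66% and 8.77%, higher than at the shared weaker promoter summits. In the IDR promoter peaks the DRE core, Ohler motif 1, CGATA and Ohler motif 7 lay in 3.41%, 3.14%, 20.2% and 4.91%. No difference from these passed the threshold (two-sided Fisher's exact test). In the unshared peaks the DRE core lay in 2.49% and Ohler motif 7 in 4.97%, and neither difference passed. Against the unshared weaker promoter peaks, CGATA was higher by 3.05 points (17.3% there, two-sided Fisher's exact test with adjusted p = 0.00652), a call lost in 7 alternatives. Ohler motif 1 was higher by 1.09 points (2.27% there, adjusted p = 0.0248, same exact test), a call lost in 5 and turned in direction in 2 alternatives. The CA repeat was higher by 1.20 points (3.32% there, adjusted p = 0.0435, same exact test), a call lost in 8. The initiator core TCAGT was in 17.3% of the windows, against 31.7% of windows centred on a start, and 27.6% of the summits lay within 50 bp of one. TCAGT was in 18.6% of the IDR promoter, 17.5% of the unshared and 15.7% of the distal windows. A share under that of all starts was thus not particular to the shared weaker promoter peaks.

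**Figure D4:**
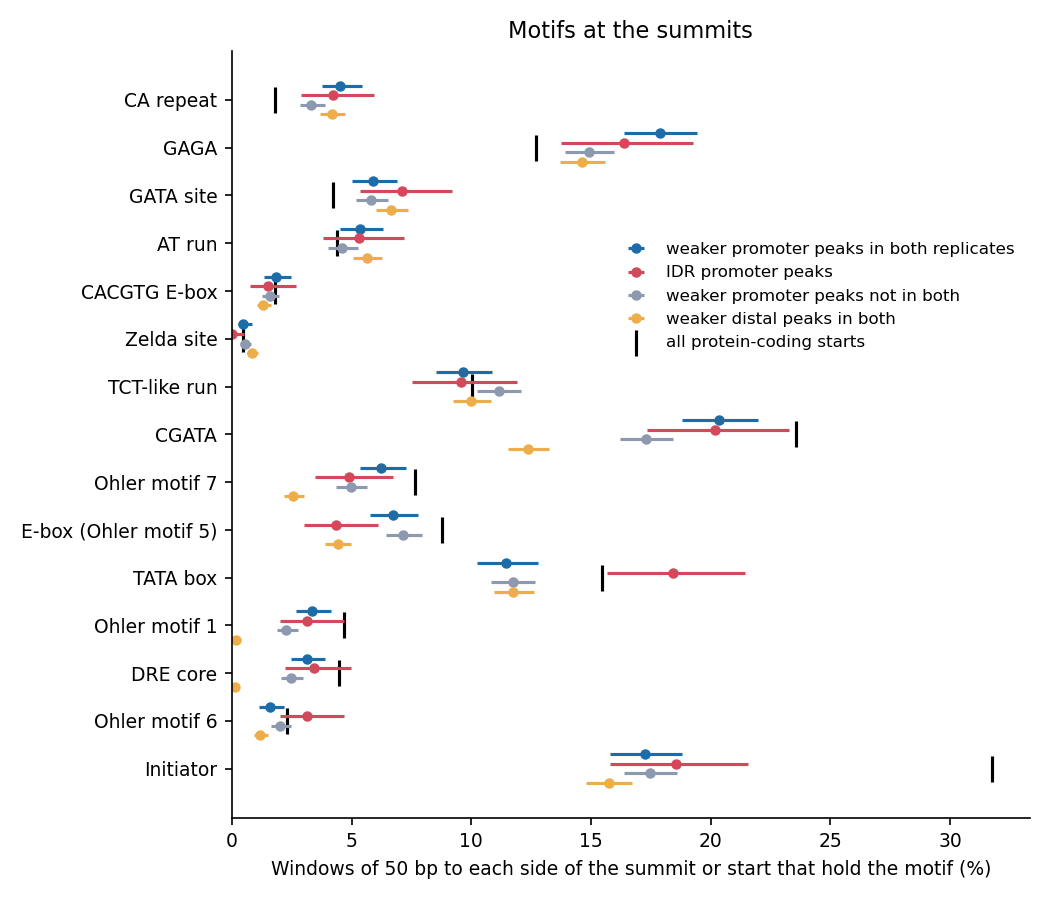
Percentage of windows of 50 bp to each side of the summit that hold each motif on either strand, for shared weaker promoter peaks, IDR promoter peaks, unshared weaker promoter peaks and shared weaker distal peaks (bars are exact 95% binomial intervals), with all protein-coding starts as black ticks. TATA boxes are at 11.5% in the shared weaker peaks against 18.4% in the IDR promoter peaks, and the DRE core and Ohler motif 1 are near 0 in the distal peaks alone.

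GAGA elements, of the kind printed above for orion and Hnf4, lay in 446 of the shared weaker promoter windows (17.9%, exact interval 16.4 to 19.4%). The share was 16.4% in the IDR promoter peaks (1.49 points, adjusted p = 0.598) and 14.9% in the unshared peaks (2.95 points, adjusted p = 0.00535), by the two-sided Fisher's exact test. It was 14.6% in the distal peaks (3.22 points) and 12.7% at all starts. The distal share is a description with no test, because distance from a start set that group apart. With 1 start per gene the difference from the distal peaks turned to -0.20 points, and at replicate 2 summits it was 1.51 points. The difference from the unshared peaks missed the threshold in 5 alternatives. Within the shared weaker promoter peaks, 23.7% of the strongest class and 14.4% of the weakest held GAGAG. The CA repeat had the highest share relative to all starts, in 113 windows (4.53%), against 1.81% of starts, a ratio of 2.50, and the share was 4.23% in the IDR promoter peaks. The GATA site was in 5.89%, against 4.24% of starts, and the A or T run in 5.37%, against 4.41%. In the IDR promoter, unshared and distal peaks, the GATA site was in 7.09%, 5.83% and 6.66%. The A or T run was in 5.32%, 4.61% and 5.65% of them, and the CA repeat in 4.17% of the distal peaks. A share above that of all starts was thus not particular to the shared weaker promoter peaks for these motifs. In all, 746 of the shared weaker promoter windows (29.9%) held at least 1 of the 4 motifs (CA repeat, GAGA, GATA, A or T run), and 1751 held none.

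Counted over genes, 2719 of 13945 protein-coding genes (19.5%) had a shared weaker promoter peak within 500 bp of a start, against 881 (6.32%) with an IDR peak there. Both kinds were present at 215 genes. A peak between close starts counts for each gene, and genes with more starts had more chances: 14.8% of the 10246 genes with 1 start had a shared weaker peak, against 32.6% of the 3699 genes with 2 or more. The lists below were chosen with earlier results of these data known, so their counts are read only against these shares and carry no test.

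The shares of the lists moved with the match: with a match within 50 bp 12.3% of all genes had a shared weaker peak, without replicate 2 33.7% and without replicate 3 28.7%, and the lists below are set beside these shares where they moved far. Of 20 EGF receptor pathway genes, 12 had a shared weaker peak (60%, exact interval 36.1 to 80.9%), against 7 with an IDR peak; with a match within 50 bp it was 30%. Egfr, the receptor, had a summit 4 bp upstream of a start (-4) with 61.9 in replicate 2 and 39.0 in replicate 3, spi, a ligand, had 35.6 and 65.5, and Cbl, a ubiquitin ligase that limits the receptor, had 62.3 and 26.2. Of 16 BMP pathway genes, 9 had a shared weaker peak, against 2 with an IDR peak. Dad, the inhibitory Smad, had 34.6 and 78.4. Mad, the receptor-activated Smad, had 34.8 (rank 5398) and 35.1 (rank 10874). Of 26 Notch pathway genes, 13 had one, against 8 with an IDR peak, and 4 had both; the share of 50% was 26.9% with a match within 50 bp. The Notch-induced repressor gene E(spl)mbeta-HLH had 54.5 in replicate 2 and 75.4 in replicate 3. The peak at numb, an inhibitor of Notch, had 76.6 and 31.7, with an IDR summit 212 bp away.

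Of 22 proneural and neuroblast genes, 12 had a shared weaker peak, against 2 with an IDR peak. They included dpn, a neuroblast repressor, with 64.0 in replicate 2 and 36.4 in replicate 3, and sna, a zinc-finger repressor, with 53.6 and 42.1. Among 15 genes of this list with 1 start, 6 had a shared weaker peak. Segmentation genes had one in 9 of 24 (37.5%, exact interval 18.8 to 59.4%), against 3 with an IDR peak. None had both, while over all genes 215 of the 2719 with a shared weaker peak also had an IDR peak. The head gap gene ems had 31.8 and 80.6, and the pair-rule gene slp2 had 72.6 and 59.4. Of 30 Polycomb and Trithorax genes, 15 had one (50%), against 7 with an IDR peak, and 23.3% had one with a match within 50 bp. Jarid2, a partner of the Polycomb repressive complex that methylates histone H3, had a summit 1 bp from a start. Its signals were 54.8 (rank 1859) and 56.8 (rank 3940). The peak at ph-d, a subunit of the other Polycomb complex, had 62.6 and 34.3. Insulator genes had a shared weaker peak in 8 of 21 (38.1%, exact interval 18.1 to 61.6%), su(Hw) among them with 36.6 and 45.9. The intervals of the segmentation and insulator shares included the 19.5% of all genes.

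**Figure D5:**
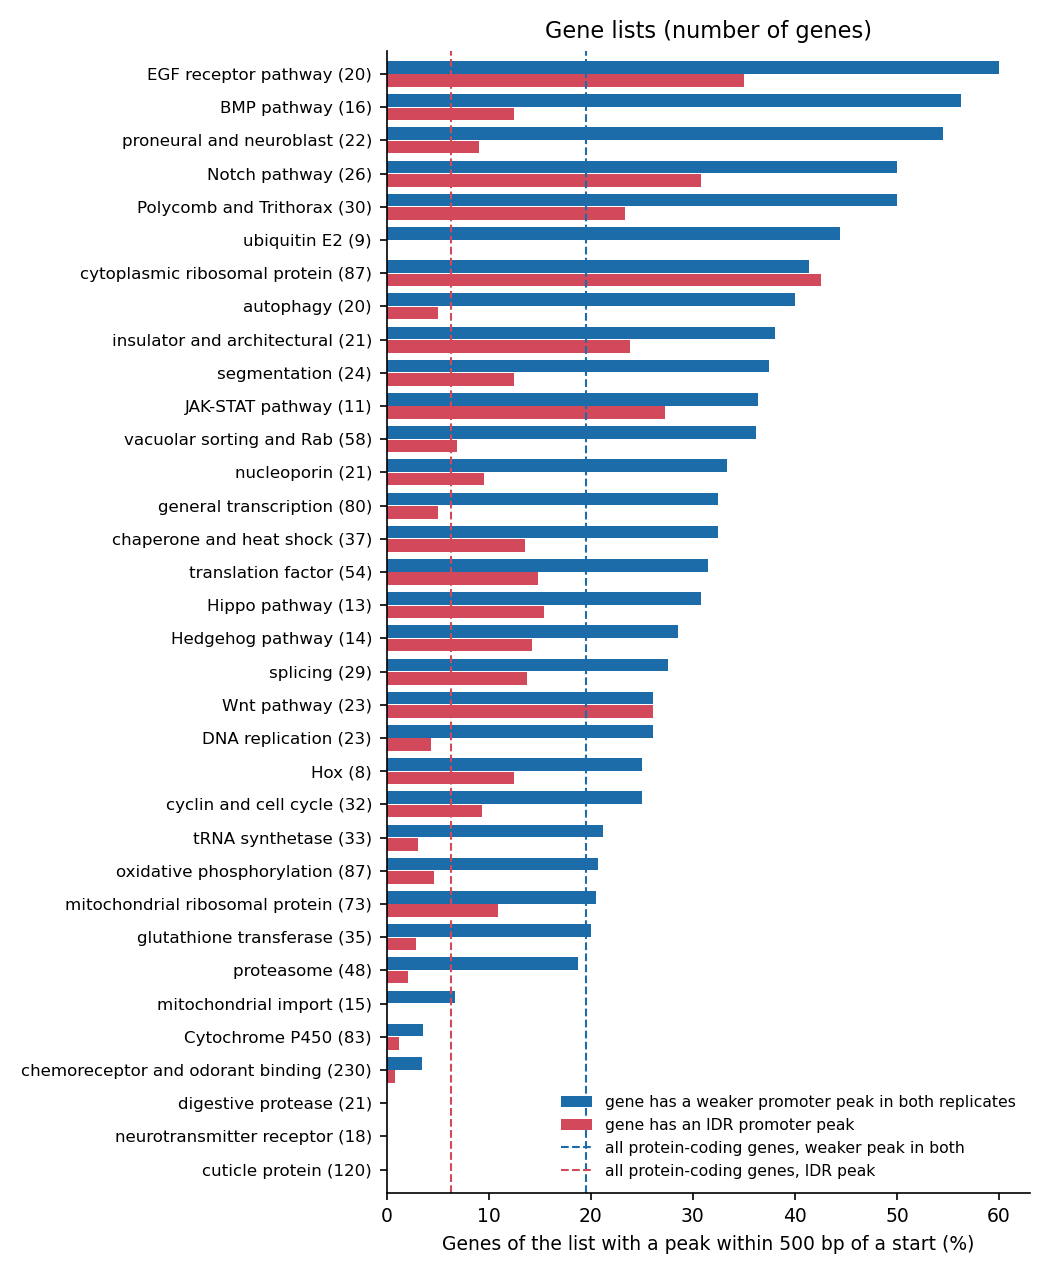
Percentage of the genes of each list with a shared weaker promoter peak, and with an IDR peak, within 500 bp of a start (number of genes in parentheses), with dashed lines for all protein-coding genes at 19.5% and 6.32%. The EGF receptor pathway stands highest at 60%, and cuticle protein, neurotransmitter receptor and digestive protease genes have neither kind.

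At cytoplasmic ribosomal protein genes the shared weaker peaks and the IDR peaks were about equally frequent. A shared weaker peak lay at 36 of 87 (41.4%, exact interval 30.9 to 52.4%) and an IDR peak at 37 (42.5%). Both lay at 4, and 69 of the 87 had either. Over all 13945 genes, 215 had both and 3385 (24.3%) had either. A single peak is either in the IDR set or outside it, so the selection limits how many genes have both. With a match within 50 bp the share with a shared weaker peak was 23.0%. RpS15Aa had 34.0 in replicate 2 and 79.8 in replicate 3, RpL18 had 33.3 and 78.9, and RpL13A had 40.4 and 94.4. RpS14a had 58.1 (rank 1601) and 57.8 (rank 3781). The summits at the genes just named lay between 15 bp upstream (RpL18, -15) and 39 bp downstream (RpS14a) of a start. Mitochondrial ribosomal protein genes had a shared weaker peak in 15 of 73 (20.5%), near the share of all genes, against 8 with an IDR peak.

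Over all genes, those with a shared weaker peak outnumbered those with an IDR peak (2719 against 881), and the other housekeeping lists are read beside that. General transcription genes had one in 26 of 80 (32.5%, exact interval 22.4 to 43.9%), against 4 with an IDR peak, and among those with 1 start it was 23 of 71. Polr1D, a subunit shared by RNA polymerases I and III, had 50.2 in replicate 2 and 76.1 in replicate 3, and Polr3B had 20.2 and 85.0. Vacuolar sorting and Rab genes had one in 21 of 58 (36.2%, 24.0 to 49.9%), against 4 with an IDR peak. Autophagy genes had one in 8 of 20 (40%, 19.1 to 63.9%), against 1. Atg1, the kinase that starts autophagy, had 31.0 and 76.9. Translation factor genes had one in 17 of 54, against 8, and chaperone and heat shock genes in 12 of 37 (32.4%, 18.0 to 49.8%), against 5. The intervals of the autophagy and chaperone shares included the 19.5% of all genes. Among the 10000 strongest pooled peaks the chaperone share was 13.5%, against 14.4% of all genes. The count was 18 of 87 for oxidative phosphorylation, 9 of 48 for the proteasome and 7 of 33 for tRNA synthetases, each near the 19.5% of all genes. Without replicate 2 these shares were 41.4%, 35.4% and 51.5% (33.7% of all genes), and without replicate 3 they were 33.3%, 39.6% and 39.4% (28.7% of all genes). Without replicate 2 the share was 53.8% for general transcription, 55.2% for vacuolar sorting and Rab, 65% for autophagy and 48.1% for translation factor genes. With a match within 50 bp it was 20.7% for vacuolar sorting and Rab and 16.2% for chaperone genes (12.3% of all genes).

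Cuticle protein, chemoreceptor and cytochrome P450 genes had shares under that of all genes. No cuticle protein gene of 120, no digestive protease gene of 21 and no neurotransmitter receptor gene of 18 had a shared weaker promoter peak, with upper exact limits of 3.03%, 16.1% and 18.5%. The limits for the protease and receptor genes lie above the 14.8% of genes with 1 start. Chemoreceptor and odorant binding genes had one in 8 of 230 (3.48%, exact interval 1.51 to 6.74%), among them Ir25a, a co-receptor, with 33.7 in replicate 2 and 67.1 in replicate 3. Cytochrome P450 genes had one in 3 of 83 (3.61%, 0.752 to 10.2%). Glutathione transferase genes had one in 7 of 35 (20%), near the share of all genes, and GstE13 had 24.2 and 80.1.

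The remaining lists were small. A shared weaker peak lay at 6 of 23 Wnt, 4 of 14 Hedgehog, 4 of 13 Hippo, 4 of 11 JAK-STAT and 2 of 8 Hox genes. It lay at 8 of 29 splicing, 6 of 23 DNA replication, 8 of 32 cell cycle, 7 of 21 nucleoporin, 4 of 9 ubiquitin E2 and 1 of 15 mitochondrial import genes. The exact interval of each of these shares included the 19.5% of all genes. An IDR peak also lay at 6 of the 23 Wnt genes. Of the 15 Wnt genes with 1 start, 1 had a shared weaker peak. With 1 start per gene the Wnt share was 8.70%, against 17.1% of all genes. Examples were boi, a Hedgehog co-receptor (37.0 in replicate 2 and 73.2 in replicate 3), Mer, the fly Merlin (67.5 and 41.9), and Wnt5 (31.9 and 85.5). Another was stg, the Cdc25 phosphatase that drives mitosis, with 57.6 (rank 1641) and 59.0 (rank 3597). CG7745 itself had a shared weaker peak 51 bp upstream of a start (-51), at a divergent promoter, with a pooled signal of 57.5 (rank 9143), 34.3 in replicate 2 (rank 5583) and 42.7 in replicate 3 (rank 7256). It had no IDR peak at its promoter.

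The 20 strongest peaks differed in how the libraries shared their signal. Their pooled signals lay between 119.8 and 121.5, a narrow range set by the selection, so these splits are a description only. Drat had 2 of them, with 86.2 in replicate 2 (rank 611) and 46.7 in replicate 3 (rank 5965), and with 62.0 (rank 1387) and 52.8 (rank 4607). Rho1, which encodes a small GTPase that controls actomyosin, had 26.5 in replicate 2 (rank 9860) and 95.9 in replicate 3 (rank 1225). 14-3-3epsilon, an adaptor protein gene, had 63.7 (rank 1294) and 43.1 (rank 7102). Dlish, tapas, CG5953, Tsp96F, drongo and CG32856 were the others not described above, with replicate 2 signals from 40.9 to 68.7 and replicate 3 signals from 49.3 to 81.4.

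Noncoding genes near the summits were counted in the promoter groups, with no share for all protein-coding starts. A start of a long or other noncoding RNA gene lay within 500 bp of 98 shared weaker promoter peaks (3.92%, exact interval 3.20 to 4.76%). This was near the 4.09% of the IDR promoter and 3.75% of the unshared peaks. A tRNA gene lay there in 14 (0.561%, 0.307 to 0.939%), against 0.955% of the IDR promoter and 0.193% of the unshared peaks. A snoRNA gene lay there in 7 (0.280%, 0.113 to 0.577%), against 1.23% and 0.107%. These shares were not tested.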

How the data were processed

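No deposited value was rescaled. The signal of each peak and its −log10 q value are those of the authors' peak lists, the summit is the peak's start plus its deposited offset, and the build is dm6, per the labels. Not given in the sources used here are the aligner, the peak caller and the threshold of the IDR. Per the labels and the deposited file descriptions, the authors called peaks for replicate 2, for replicate 3 and for both pooled, against 1 control alignment that was not analysed here.

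Starts, exons and gene names came from Ensembl release 115 and sequence from genome Release 6, on the arms 2L, 2R, 3L, 3R, 4 and X. Shares have exact (Clopper-Pearson) 95% intervals. Groups of peaks were compared by two-sided Fisher's exact tests, adjusted by the Benjamini-Hochberg method over 54 tests (2 of them, on coding sequence, added after the data were seen) with a threshold of 0.05, and 6-mers over 2080 tests. The members of the group, the 34 gene lists and the 15 motifs were chosen with earlier results of these data known. Lists match gene symbols, 3 entries had no match, and patterns that had caught genes of another kind (a tRNA synthetase, a cyclophilin, ribosomal-protein-like genes) were corrected after the data were seen. Named genes are those at the 20 strongest peaks, up to 4 strongest per list, CG7745, the 5 lowest rank sums, the 5 largest rank differences and the peaks nearest each limit. Sequences are the 2 strongest for each of 4 motifs and 3 with none, outside arm 2R and UTRs. The code was tested on simulated data. Alternatives were other windows, distances and ranks, each replicate alone, replicate summits and 1 start per gene. Tools were SciPy 1.17.1, pandas 2.3.3, matplotlib 3.10.9 and NumPy 2.4.6 under Python 3.11.15.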

Additional observations from a re-analysis of the deposited data

How the results depend on the processing

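No paired analysis was possible because the design has 1 group. The number of shared weaker promoter peaks was 1514 with a match within 50 bp, and between 3980 and 4865 when a match in 1 replicate sufficed; the genes with one numbered 1716 with a match within 50 bp and between 4006 and 4700 with a match in 1 replicate. The share upstream was 51.7% with a window of 1000 bp, 58.7% among the 10000 strongest pooled peaks, 49.6% with 1 start per gene and between 53.0 and 53.9% with 1 replicate. The share at divergent promoters was 37.7% and 30.5% with windows of 250 and 1000 bp, 39.7% with 1 start per gene and 23.2% with the opposite start within 500 bp. The share in coding sequence was 4.59% and 6.98% with windows of 250 and 1000 bp, 3.20% among the 10000 strongest, 6.73% at replicate 2 summits and between 8.16 and 8.32% with 1 replicate.

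Differences from the IDR promoter peaks in position, X and coding sequence kept their direction and call in all alternatives. Against the unshared peaks, the upstream difference missed the threshold with a window of 250 bp (3.22 points), a match within 50 bp (2.36), the 10000 strongest (3.13), replicate 3 summits (2.16) and 1 start per gene (1.53), and was between 1.88 and 5.15 points with 1 replicate. The difference on X from them passed with a match within 200 bp (-2.37 points) and was between -2.84 and -1.19 points with 1 replicate. The difference in coding sequence from them missed it among the 10000 strongest (-1.42 points). The difference on X from the distal peaks missed it with a window of 1000 bp (1.68 points), a match within 50 bp (1.99), the 10000 strongest (1.85), peaks near an IDR summit left out (1.66), replicate 2 or 3 summits (2.07) and 1 start per gene (1.30). The direction turned for Ohler motif 1 against the unshared peaks (-0.101 points among the 10000 strongest, -0.0348 at replicate 3 summits) and for GAGA against the distal peaks (-0.201 with 1 start per gene). Of the motif differences, 33 lost and 26 gained a call, and 47 list shares left their exact interval while 361 stayed within it. The cause was not tested for any of these. The unknown depth limits what can be said of absent peaks, and the lists stop at 30000 peaks.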
